A study of Mus musculus with 18 samples.

Results

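Liver was compared between mice injected with LPS and control mice by RNA-seq, as 3 libraries against 3, which are 6 of the 18 libraries of the study. LPS, the lipopolysaccharide that coats Gram-negative bacteria, was injected intraperitoneally at 10 mg/kg into male wild-type C57BL/6 mice, and liver was taken 16 h later. The controls received saline in place of LPS, and both groups were gavaged with the vehicle, 10% DMSO, over the 3 d before. The groups held 6 mice each, and 3 livers per group were sequenced. A further 3 liver libraries, from mice given LPS after MIC-1 at 80 mg/kg, only shared the estimate of the spread. Genes were kept where the mean FPKM (fragments per kilobase of transcript, relative to the mapped reads of a library) over the 9 liver libraries was above 1, which left 10147 of 21441 genes. The labels do not say which libraries share a cage or an injection day, and all P-values measure only the spread between these libraries.

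Hepatocytes make most plasma proteins, and in the acute-phase response the cytokines released by macrophages that sense LPS through CD14 and TLR4 turn this output towards proteins that bind iron, heme, proteases and bacterial products. IL-6 acts on hepatocytes through STAT3 and IL-1 through NF-kB and C/EBP factors, while interferons act through STAT and IRF factors. The same cells also carry out bile acid synthesis, drug metabolism, lipid and glucose metabolism and the urea cycle, in zones that run from the portal vein to the central vein, and blood leukocytes can enter the sinusoids between them.

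The libraries differed in depth and in likeness. From the steps between low FPKM values, about 8.8, 3.9 and 3.8 M reads were estimated for control libraries 1 to 3 and 15.7, 10.4 and 15.8 M for LPS libraries 1 to 3, so depth differed with the treatment. Summed over all genes, FPKM came to 590300 to 758700 in the controls and to 783900 to 887200 with LPS. LPS libraries 1 and 3 were close to each other (Pearson r = 0.979 across tested genes, which are not independent replicates), while LPS library 2 stood apart from both (0.889 and 0.893) and nearer to the controls (0.855 to 0.886, against 0.714 to 0.824 for LPS libraries 1 and 3). LPS library 2 was nearest to a library of mice given MIC-1 before LPS (0.947), and whether the labels of these libraries are right cannot be settled here. Without LPS library 2, 22 counts of higher or lower list members moved beyond a set margin and 84 stayed within it. Only some of these 22 are given beside the results. Among the controls, libraries 2 and 3 were closer to each other (0.930) than to control library 1 (0.906 and 0.887). Control library 2 held raised levels of several acute-phase genes, as given below. The columns of the table carry no replicate number, so libraries are numbered in their order within a treatment and values are given in that order. Some genes that most cells use were listed at 0 in single libraries, such as Csnk2b, a subunit of casein kinase 2, at 45.8, 0 and 0 FPKM in the controls and 127, 19.6 and 136 with LPS. Genes listed at 0 in every library of a group are therefore given by their values with no fold.

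A gene was called where the adjusted P-value (limma, Benjamini-Hochberg over all tested genes) was below 0.05 and the absolute Log2FC above 1, with Log2FC the difference of the group means of log2(FPKM + 0.5), a scale that understates the change of low genes. With LPS, 1356 genes were called higher and 1137 lower, which is 13.4% and 11.2% of the genes tested and 24.6% in all. Leaving out LPS library 3 left 657 higher and 570 lower, LPS library 1 801 and 671, control library 3 872 and 783, and control library 2 947 and 743, while without LPS library 2 the counts were 1929 and 1581. Each SE and P-value pools the spread of all 3 liver groups, the libraries of mice given MIC-1 among them. A lost call therefore need not mean that the control and LPS libraries disagree on a gene. The 3 LPS and 3 control values did not overlap for 24.2% of genes in the higher and 20.8% in the lower direction. Among the called genes, 54.4% were higher, against 30.1% after scaling all libraries to the same FPKM sum, which moved the median Log2FC of all genes from 0.15 to -0.18. An exact permutation test of 3 against 3 values cannot go below 0.1, so single genes rest on the limma fit across all genes. For 687 of the tested genes the control mean was below 1 FPKM and the LPS mean above it, and these genes were tested because they were high with LPS. They include S100a9, Ngp, Il10, Ccl12, Oas1g, Cidec, Fgf21, Chi3l3 and Gzma, so the counts of higher members in their lists lean on this filter. Most of the liver libraries came from mice given LPS, so the filter also dropped genes that were high only in the controls. With the mean taken over the 6 control and LPS libraries, 1346 genes were called higher and 1211 lower. The lists named below were read against the shares of 13.4% and 11.2%.

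**Figure D1:**
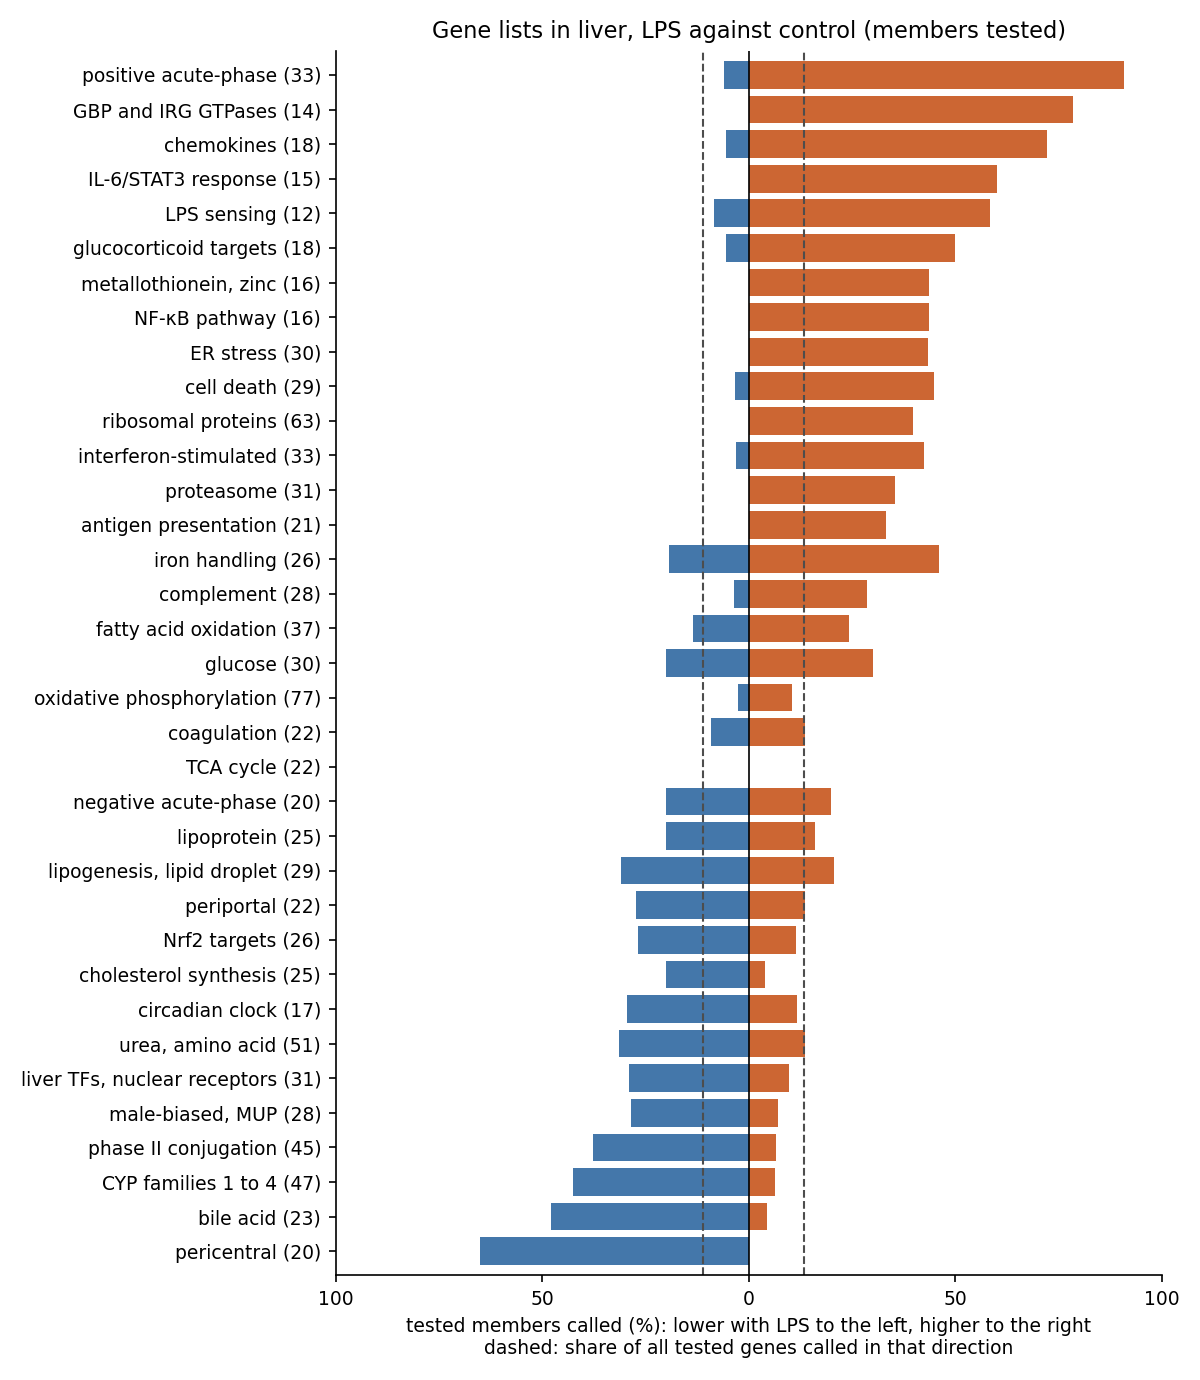
Share of the tested members of the gene lists named on the axis, without the cell type markers and some short lists, that were called lower (left, blue) or higher (right, orange) with LPS, in percent, with the number of tested members in brackets and the shares over all tested genes as dashed lines at 11.2% and 13.4%. Of the lists plotted, positive acute-phase genes reach furthest to the right, with 30 of 33 higher, and pericentral genes furthest to the left, with 13 of 20 lower.

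By Log2FC, the 10 largest rises among called genes without overlap between the groups were those of Crybb3, S100a9, Cidec, Saa3, Lcn2, Saa2, Saa1, Reg3g, S100a8 and Mt2. Crybb3, a lens crystallin gene, was listed at 0 in every control library and at 109.8, 11.2 and 131 FPKM with LPS. Reg3g, a secreted lectin that binds Gram-positive bacteria, was at 1.45, 11 and 1.34 FPKM in the controls and 215, 108 and 298 with LPS (Log2FC 5.79, SE 0.72, adjusted P-value 0.00172). LPS library 2 was the lowest of its group for both genes, and every LPS library lay above every control. By the same rule the 10 largest falls were those of Hamp2, Hsd3b5, 1500017E21Rik, Aqp8, Oxt, Keg1, Chrna4, Cyp7a1, Hsd3b2 and Aox3. Aqp8, a water channel of the hepatocyte, was at 53.4, 16.6 and 24.9 FPKM in the controls and at 0, 0.391 and 0 with LPS (Log2FC -5.56, SE 0.64, adjusted P-value 0.00123). Chrna4, a subunit of the nicotinic acetylcholine receptor, fell from 11.9, 22.3 and 21.4 to 0.0409, 0.0398 and 0.0291 FPKM (Log2FC -5.10, SE 0.28, adjusted P-value 0.000193), and Oxt, which encodes oxytocin, from 29.6, 73.4 and 59.1 to 1.10, 3.47 and 0 FPKM (Log2FC -5.12, SE 0.70, adjusted P-value 0.00262). The groups did not overlap for any of these 3 genes. The call of Aox3 was lost without control library 2 or 3 or LPS library 1 or 3, with Log2FC from -4.58 to -3.81 and adjusted P-values from 0.0546 to 0.073.

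Positive acute-phase genes, most of which encode plasma proteins that increase in inflammation, beside intracellular ones such as the metallothioneins, rose as a group, with the highest median Log2FC of the lists read here. Of 33 members, all of them tested, 30 rose and 2 fell, with a median Log2FC of 3.79, and the counts were 30 and 2 also without LPS library 2, without control library 2 and without both. Their summed level was 28370, 40780 and 14180 FPKM in the controls and 240200, 217800 and 300900 with LPS, a ratio of 9.11, or 7.10 after scaling to the same sum. In bulk liver a change in the number of cells of a type and a change in RNA per cell cannot be told apart. Saa3, Lcn2, Saa2 and Saa1 held the largest Log2FC of the list. Of the serum amyloid A genes, whose products ride on HDL, Saa3 was at 391, 4075 and 52.9 FPKM in the controls and at 24440, 38660 and 38040 with LPS (Log2FC 6.23, SE 1.26, adjusted P-value 0.00904). Saa2 was at 524, 4703 and 57.6 FPKM against 33710, 25530 and 48120 (Log2FC 6.05, SE 1.28, adjusted P-value 0.0104), and Saa1 at 187, 1491 and 13.9 against 10520, 6438 and 15450 (Log2FC 6.00, SE 1.36, adjusted P-value 0.013). Saa4, picked after its values were seen, rose less (Log2FC 2.80, adjusted P-value 0.000735). Saa1 and Saa2 are near-identical copies, so the split of reads between them is uncertain. In Saa1, Saa2 and Saa3 control library 2 was the highest and control library 3 the lowest control, and no control reached the lowest LPS library. Leaving out LPS library 3 ended the call of Saa1, at Log2FC 5.69 and adjusted P-value 0.0538.

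The iron-binding protein lipocalin 2 (Lcn2) was at 406, 2037 and 35.5 FPKM in the controls and at 22430, 18270 and 29550 with LPS (Log2FC 6.21, SE 1.18, adjusted P-value 0.00732). Haptoglobin (Hp), which binds hemoglobin, was at 2366, 2790 and 216 against 17570, 13030 and 20580 FPKM (Log2FC 3.90, SE 0.86, adjusted P-value 0.012), and hemopexin (Hpx), which binds heme, at 3093, 3395 and 1313 against 21120, 27090 and 23680 (Log2FC 3.31, SE 0.37, adjusted P-value 0.00108). The spread among the controls was wider for Hp than for Hpx, and the groups stayed apart for both. The protease inhibitor Serpina3n rose from 225, 665 and 126 to 8503, 5982 and 8507 FPKM (Log2FC 4.83, SE 0.52, adjusted P-value 0.000953), and the pentraxins Apcs and Crp rose by Log2FC 4.70 and 1.74 (adjusted P-values 0.00379 and 0.00535). Orosomucoids, which bind drugs and lipids in plasma, rose as well, with Orm1 at 2010, 3098 and 1189 FPKM against 16780, 26240 and 21010 (Log2FC 3.43, SE 0.38, adjusted P-value 0.00103) and Orm2 at Log2FC 5.18 (adjusted P-value 0.00558). The 3 fibrinogen chains rose together. Fga was at 708, 693 and 116 against 8881, 2087 and 8074 FPKM, Fgb at 1825, 1504 and 556 against 13190, 5067 and 13010, and Fgg at 984, 1013 and 278 against 10830, 3666 and 11070 (Log2FC 3.79, 3.05 and 3.54, adjusted P-values 0.0111, 0.00619 and 0.00539). LPS library 2 held the lowest LPS level of each chain, yet above every control. The smallest rise of the list was that of ceruloplasmin (Cp), at Log2FC 1.07 (adjusted P-value 0.011). The call of Cp was lost without control library 3, at Log2FC 0.90 and adjusted P-value 0.0375. The genes Serpina3n, Apcs, Crp, Orm1, Orm2, Fga, Fgb, Fgg and Cp were picked for their roles after their values were seen.

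**Figure D2:**
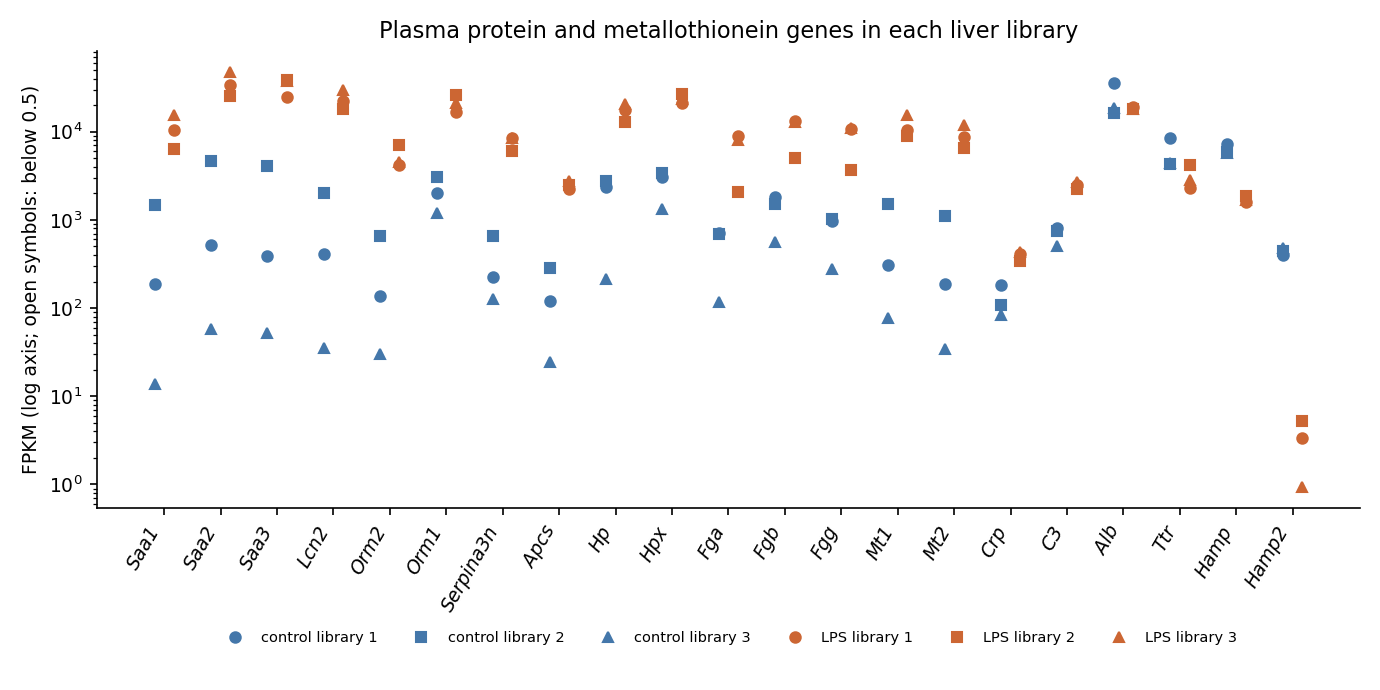
FPKM of 21 plasma protein and metallothionein genes in each liver library on a log axis, controls in blue and LPS in orange, with 1 symbol shape for each library number. Saa1, Saa2 and Lcn2 run from control library 3 at the bottom through control library 2 to the LPS libraries, Alb overlaps between the groups, and Hamp and Hamp2 lie lower with LPS.

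The 2 members that fell were the hepcidin genes Hamp and Hamp2, and the peptide made from Hamp closes the iron exporter ferroportin. Hamp (chr7:31727390-31729036 in mm9) was at 7315, 5854 and 5794 FPKM in the controls and at 1593, 1874 and 1692 with LPS (Log2FC -1.87, SE 0.41, adjusted P-value 0.0114). Hamp2 (chr7:31707391-31709200 in mm9), a neighbouring copy, was at 395, 447 and 481 FPKM against 3.41, 5.24 and 0.925 (Log2FC -7.12, SE 0.44, adjusted P-value 0.000204), the largest fall of all tested genes without overlap. The groups stood apart for both, and Hamp2 was low in each LPS library. The copies are alike in sequence, so reads may be split between them with error.

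Promoters of genes that rose together, and of both hepcidin genes, are shown as the 250 bases before the RefSeq transcription start (GRCm38.p6, strand of the gene, 5′ to 3′). Capitals mark the letters TTGCNNAA, the core of C/EBP sites, or TTCNNNGAA, the core of STAT sites, on either strand. Saa1 (chr7:46742981-46743230, minus strand) and Saa2 (chr7:46751583-46751832, plus strand) are shown because their promoters are nearly alike around the match TTGCACAA, Lcn2 (chr2:32387740-32387989, minus strand) and Orm2 (chr4:63362199-63362448, plus strand) because they rose with other matches, and Hamp (chr7:30944030-30944279, minus strand) and Hamp2 (chr7:30924182-30924431, minus strand) because they fell and share the STAT match TTCTTGGAA.
Saa1: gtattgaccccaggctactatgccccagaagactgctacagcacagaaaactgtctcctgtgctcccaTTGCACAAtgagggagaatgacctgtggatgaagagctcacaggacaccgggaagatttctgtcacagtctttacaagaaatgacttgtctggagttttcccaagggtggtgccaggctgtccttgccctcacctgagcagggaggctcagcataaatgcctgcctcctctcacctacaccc
Saa2: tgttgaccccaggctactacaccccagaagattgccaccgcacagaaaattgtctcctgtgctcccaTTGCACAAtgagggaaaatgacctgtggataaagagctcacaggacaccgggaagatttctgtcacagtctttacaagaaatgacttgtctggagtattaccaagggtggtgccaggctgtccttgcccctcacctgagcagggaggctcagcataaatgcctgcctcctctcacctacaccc
Lcn2: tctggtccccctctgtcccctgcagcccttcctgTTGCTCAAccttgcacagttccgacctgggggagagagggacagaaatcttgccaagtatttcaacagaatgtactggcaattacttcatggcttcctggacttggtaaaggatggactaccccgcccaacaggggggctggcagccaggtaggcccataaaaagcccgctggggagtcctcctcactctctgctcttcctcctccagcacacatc
Orm2: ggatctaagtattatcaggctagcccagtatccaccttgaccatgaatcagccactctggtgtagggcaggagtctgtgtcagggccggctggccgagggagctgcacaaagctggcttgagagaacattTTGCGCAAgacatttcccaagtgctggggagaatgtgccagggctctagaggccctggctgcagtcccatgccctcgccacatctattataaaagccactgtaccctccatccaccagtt
Hamp: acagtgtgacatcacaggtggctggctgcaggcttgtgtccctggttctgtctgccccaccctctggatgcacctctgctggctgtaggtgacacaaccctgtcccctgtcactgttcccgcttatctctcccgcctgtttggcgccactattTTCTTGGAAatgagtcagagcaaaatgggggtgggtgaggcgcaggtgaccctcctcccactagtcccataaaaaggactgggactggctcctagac
Hamp2: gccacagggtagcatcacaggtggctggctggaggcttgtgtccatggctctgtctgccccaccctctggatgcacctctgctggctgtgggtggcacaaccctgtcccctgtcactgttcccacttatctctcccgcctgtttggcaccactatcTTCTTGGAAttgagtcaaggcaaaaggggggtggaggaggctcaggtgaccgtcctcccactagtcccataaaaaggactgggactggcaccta

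Promoters were counted over 300 bases, from 250 before to 50 after each start. RefSeq promoters were at hand for 24 of the 33 positive acute-phase genes, 28 promoters in all where a gene has several starts, and TTGCNNAA stood in 14 of 28 (50%), against 10.8% of all 32851 promoters. The letters TTCNNNGAA stood in 7 of 28 (25.0%), against 8.30% of all promoters. In the IL-6 and STAT3 response list TTCNNNGAA stood in 1 of 16 promoters and TTGCNNAA in 1 of 16 (6.25% each), below the shares of all promoters. On the gene strand alone TTGCNNAA stood in 39.3% of acute-phase and 5.80% of all promoters. These counts describe letters in a window and were not tested, and both genes that fell are among the STAT matches. In the Saa1 promoter the C/EBP match began at position -182 from the start and in Saa2 at -183. The STAT match began at -97 in Hamp and at -94 in Hamp2.

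Negative acute-phase genes, whose products decline in plasma during inflammation, did not move as 1 group. Of 20 tested members 4 rose and 4 fell (median Log2FC -0.18). After scaling to the same sum the counts were 2 and 7. Albumin (Alb), the main plasma protein, was at 35990, 16300 and 18360 FPKM in the controls and 19260, 18220 and 18080 with LPS, and transthyretin (Ttr), a carrier of thyroid hormone, at 8439, 4256 and 4392 against 2303, 4148 and 2852. Neither passed the test (adjusted P-values 0.598 and 0.0874), and control library 1 held the highest level of both genes. The values of Alb overlapped, while those of Ttr did not. Without LPS library 2, Ttr was called lower, at Log2FC -1.08 and adjusted P-value 0.0391. The 4 that fell were Igfals, which holds IGF-1 in plasma, at 71.9, 31.6 and 32.3 against 7.42, 15.7 and 8.35 FPKM (Log2FC -2.02, SE 0.37, adjusted P-value 0.00634), the protein Z gene Proz, the corticosteroid carrier Serpina6 and 1 further member. The call of Proz was lost without LPS library 1 or 3, with Log2FC from -1.54 to -1.39 and adjusted P-values from 0.0601 to 0.0603. Leaving out control library 3 ended the call of Serpina6, at Log2FC -1.58 and adjusted P-value 0.0547. Transferrin (Trf), the plasma iron carrier, rose from 3037, 2148 and 1407 to 7152, 4476 and 8585 FPKM (Log2FC 1.64, SE 0.41, adjusted P-value 0.0187). The call of Trf was lost without control library 2 or 3 or LPS library 1 or 3, with Log2FC from 1.35 to 1.65 and adjusted P-values from 0.0549 to 0.0796. The count of members that rose was 0 without control library 2 or 3 or LPS library 1 or 3, and that of members that fell was 2 without LPS library 1 or 3.

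Complement genes rose in 8 of 28 tested members (median Log2FC 0.82). C3, the central component, was at 815, 742 and 499.9 FPKM in the controls and 2496, 2237 and 2672 with LPS (Log2FC 1.88, SE 0.26, adjusted P-value 0.00262), and the C1 inhibitor Serping1 rose by Log2FC 1.70 (adjusted P-value 0.00875). The factor B gene Cfb, of the alternative pathway, and the lectin gene Mbl1, both picked after their values were seen, rose by Log2FC 1.41 and 1.27 (adjusted P-values 0.0016 and 0.00578). The member that fell was Cd59a, which blocks the membrane attack complex. The call of Cd59a was lost without control library 2 or 3 or LPS library 1 or 3, with Log2FC from -1.47 to -1.11 and adjusted P-values from 0.0505 to 0.0828. Coagulation genes gave 3 higher and 2 lower of 22, a share near that of all genes, with a median Log2FC of 0.08 that turned to -0.28 on the same-sum scale. Klkb1, the gene of plasma prekallikrein, fell from 125, 146 and 154 to 8.05, 62.4 and 6.33 FPKM (Log2FC -3.20, SE 0.72, adjusted P-value 0.0126). The call of Klkb1 was lost without LPS library 1, at Log2FC -2.77 and adjusted P-value 0.0502. The coagulation count of higher members was 1 without LPS library 1 or 3 and 6 without control library 1 or LPS library 2, and that of lower members 0 without LPS library 1, 1 without control library 2 or 3 or LPS library 3 and 4 without LPS library 2.

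Chemokine genes, which draw leukocytes into tissue, rose in 13 of 18 tested members and fell in 1 (median Log2FC 2.04), and 10 further members were below the level filter. Cxcl9, an interferon-induced ligand of CXCR3 on T cells, was at 16.5, 27.0 and 5.25 FPKM in the controls and 658, 661 and 535 with LPS (Log2FC 5.47, SE 0.53, adjusted P-value 0.00061). Cxcl1, a ligand of the neutrophil receptor CXCR2, was at 12.4, 12.1 and 7.83 against 192, 139 and 226 FPKM (Log2FC 4.04, SE 0.26, adjusted P-value 0.000204). Ccl5 rose from 7.18, 18.4 and 19.7 to 118, 169.7 and 163 FPKM (Log2FC 3.38, SE 0.48, adjusted P-value 0.00292). LPS library 2 lay with the other LPS libraries for these genes. Cxcl10, Cxcl13 and Ccl2, picked after their values were seen, rose by Log2FC 2.52, 2.40 and 2.70 (adjusted P-values 0.000204, 0.00873 and 0.00262), and Ccl12 was listed at 0 in every control and at 1.64, 3.64 and 1.19 FPKM with LPS. The member that fell was Ccl24, an eosinophil attractant. The call of Ccl24 was lost without control library 3 or LPS library 3, with Log2FC from -1.12 to -1.04 and adjusted P-values from 0.0555 to 0.076.

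Of 23 measured cytokine genes, 9 passed the level filter, and Tnf, Il6, Ifng and Ifnb1 did not. The 4 that rose were Il1b, at 1.17, 0.587 and 1.72 against 7.21, 9.88 and 9.03 FPKM (Log2FC 2.52, SE 0.32, adjusted P-value 0.00193), Il33, Ebi3 and Il10, an inhibitor of macrophage activation that was at 0.26, 0 and 0.149 FPKM against 1.62, 1.35 and 1.83 (Log2FC 1.74, SE 0.29, adjusted P-value 0.00492). Il10 passed the level filter only through libraries of mice given LPS. Of the members below the filter, Lif was at 2.125, 2.457 and 1.692 FPKM in the controls and 0.661, 0.74 and 0.477 with LPS. Il27 was at 0.937, 1.90 and 1.24 against 0.448, 0.631 and 0.351 FPKM. Both were lower without overlap, while Tnf and Tnfsf9 were higher without overlap, and none of them was tested. The call of Il33 was lost without any control library or LPS library 1 or 3, with Log2FC from 1.94 to 2.43 and adjusted P-values from 0.0577 to 0.115. Among genes of LPS sensing 7 of 12 rose and 1 fell (median Log2FC 1.5). This list also holds genes of the response to LPS, such as Sod2 and Irg1, which are among those that rose. Cd14 and Lbp are also counted in the acute-phase list, and Cd14 among the monocyte markers. The co-receptor Cd14 was at 10.8, 7.70 and 3.48 FPKM in the controls and at 569, 84.2 and 552 with LPS (Log2FC 5.38, SE 0.95, adjusted P-value 0.00578), with LPS library 2 well below the others and above the controls. Lbp, the plasma protein that hands LPS to CD14, rose from 29.9, 24.6 and 15.4 to 187, 105 and 178 FPKM (Log2FC 2.73, SE 0.31, adjusted P-value 0.00112). Tlr2, a receptor of bacterial lipoproteins, rose by Log2FC 2.49 (adjusted P-value 0.0012), and the adaptor Myd88 by 1.57 (adjusted P-value 0.00535). Tlr4 itself was below the level filter. Tirap, an adaptor of the same receptors, fell with Log2FC -1.22 (adjusted P-value 0.0135). Leaving out LPS library 3 ended the call of Tirap, at Log2FC -0.98 and adjusted P-value 0.0534.

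Genes of the NF-kB pathway, among them its subunits, kinases, inhibitors and some of its targets, rose in 7 of 16 tested members (median Log2FC 1.24). The adhesion molecule Icam1, a classical target on endothelium and hepatocytes, was at 7.01, 8.71 and 6.27 FPKM in the controls and 36.9, 40.4 and 39.5 with LPS (Log2FC 2.34, SE 0.24, adjusted P-value 0.000695). The deubiquitinase A20 gene Tnfaip3 was at 0.465, 0.293 and 0.287 against 10.4, 1.30 and 10.5 FPKM (Log2FC 2.83, SE 0.63, adjusted P-value 0.0121), with LPS library 2 at the lowest LPS level. The call of Tnfaip3 was lost without LPS library 3, at Log2FC 2.39 and adjusted P-value 0.0518. The count of higher members was 2 without LPS library 3 and 11 without LPS library 2. Genes of the IL-6 and STAT3 response rose in 9 of 15 (median Log2FC 1.19). Socs3, the feedback inhibitor of IL-6 signalling, was at 5.12, 7.74 and 4.78 against 42.2, 25.2 and 40.4 FPKM (Log2FC 2.51, SE 0.26, adjusted P-value 0.000742). Cebpd, a C/EBP factor of the acute phase, was at 3.88, 3.83 and 2.28 against 37.6, 19.1 and 38.4 (Log2FC 3.03, SE 0.30, adjusted P-value 0.000631), and the receptor Il1r1 at 9.02, 17.6 and 13 against 85.3, 41.7 and 79.5 (Log2FC 2.32, SE 0.32, adjusted P-value 0.00262). Stat3 itself, picked after its values were seen, rose by Log2FC 1.74 (adjusted P-value 0.00566). The groups stood apart for each of these genes, and LPS library 2 was the lowest LPS library in the IL-6 genes named here.

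Interferon-stimulated genes rose in 14 of 33 tested members and fell in 1 (median Log2FC 1.43). Zbp1, a sensor of nucleic acids that can start necroptosis, was at 8.47, 8.80 and 6.02 FPKM in the controls and 156, 82.6 and 165 with LPS (Log2FC 3.98, SE 0.31, adjusted P-value 0.000291). Oas1a, of the antiviral oligoadenylate synthetases, was at 1.71, 3.64 and 2.87 against 21.9, 26.5 and 25.2 FPKM (Log2FC 2.99, SE 0.25, adjusted P-value 0.000424), while its relative Oas1g was listed at 0 in every control and at 5.42, 1.36 and 6.52 with LPS. The ubiquitin-like modifier Isg15 and the regulator Irf7, picked after their values were seen, rose by Log2FC 2.70 and 2.07 (adjusted P-values 0.000709 and 0.00183). The member that fell was Ido2. The call of Ido2 was lost without control library 2 or 3 or LPS library 1 or 3, with Log2FC from -1.43 to -1.07 and adjusted P-values from 0.107 to 0.152. Guanylate-binding proteins and immunity-related GTPases, which attack vacuoles that hold bacteria, rose in 11 of 14 (median Log2FC 2.07). Gbp2 was at 3.77, 2.58 and 1.19 against 128, 28.4 and 117 FPKM (Log2FC 4.75, SE 0.67, adjusted P-value 0.00283), and Igtp, picked for its promoter, at 11.9, 13.9 and 13 against 63.7, 57.7 and 68.5 (Log2FC 2.25, SE 0.15, adjusted P-value 0.000204). LPS library 2 was far below its group for Gbp2 and close to it for Igtp. Several of these genes share long stretches, so reads may be split between them with error.

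The Igtp promoter (chr11:58199306-58199555, GRCm38.p6, plus strand) is shown because it holds both kinds of match, TTCNNNGAA at -45 and the interferon-stimulated response element core, GAAA repeated after any 2 bases, at -34, and the Gbp2 promoter (chr3:142620413-142620662, plus strand) because it holds the same core on the opposite strand at -59. Capitals mark the matches.
Igtp: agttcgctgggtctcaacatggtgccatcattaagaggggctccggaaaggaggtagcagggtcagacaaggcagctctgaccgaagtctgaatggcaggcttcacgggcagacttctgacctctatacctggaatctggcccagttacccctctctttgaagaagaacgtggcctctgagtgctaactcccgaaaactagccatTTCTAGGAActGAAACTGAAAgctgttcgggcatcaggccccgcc
Gbp2: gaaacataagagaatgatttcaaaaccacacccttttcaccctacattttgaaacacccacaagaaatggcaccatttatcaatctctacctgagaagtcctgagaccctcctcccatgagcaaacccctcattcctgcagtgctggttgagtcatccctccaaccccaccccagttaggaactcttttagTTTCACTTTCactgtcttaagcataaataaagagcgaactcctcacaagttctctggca

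The response element core (GAAA, any 2 bases, GAAA) stood in 9 of 11 promoters of the GTPase list at hand (81.8%) and in 14 of 33 of the interferon-stimulated list (42.4%), against 3.44% of all promoters. TTCNNNGAA stood in 54.5% and 24.2% of these promoters. The core of NF-kB sites (GGGA, any base, TTTCC) stood in 3 of 19 chemokine promoters and 3 of 19 promoters of NF-kB pathway genes (15.8% in each), against 0.411% of all promoters. On the gene strand alone the response element core stood in 45.5%, 21.2% and 1.74% of the GTPase, interferon-stimulated and all promoters, and the NF-kB core in 15.8%, 10.5% and 0.207% of chemokine, NF-kB and all promoters. In antigen presentation genes the response element core stood in 4 of 22 and TTCNNNGAA in 1 of 22 promoters. These shares again describe letters in a window. Antigen presentation genes rose in 7 of 21 tested members (median Log2FC 0.64), with the immunoproteasome subunit Psmb8 at 13.9, 18.4 and 16.4 against 83.7, 110 and 96.8 FPKM (Log2FC 2.54, SE 0.19, adjusted P-value 0.000246). The class I heavy chain H2-D1 rose by Log2FC 1.84 and its loading factor Tapbp by 1.73 (adjusted P-values 0.00292 and 0.00108).

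Genes of endothelial activation, which mark vessels that bind leukocytes or shed anticoagulants, rose in 8 of 11 tested members (median Log2FC 1.25), Icam1 among them. The adhesion molecules Vcam1 and Icam2, picked after their values were seen, rose by Log2FC 1.63 and 1.25 (adjusted P-values 0.00207 and 0.00497). Vcam1 was at 0.875, 1.52 and 1.48 FPKM in the controls and at 4.18, 5.90 and 4.93 with LPS, so its level was low in both groups and they did not overlap. The count was 3 without LPS library 1 or 3 and 4 without control library 2, and on the same-sum scale it was 5.

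Iron genes beside the hepcidins moved in both directions, with 12 of 26 tested members higher and 5 lower (median Log2FC 0.89), and several of these also stand in the acute-phase list. The importer Slc11a2 (DMT1) was at 1.22, 1.15 and 0.595 FPKM in the controls and 19.5, 3.23 and 16.7 with LPS (Log2FC 2.90, SE 0.62, adjusted P-value 0.0111). Heme oxygenase Hmox1, which frees iron from heme, was at 7.50, 9.24 and 4.64 against 60.3, 21.2 and 59.7 FPKM (Log2FC 2.54, SE 0.48, adjusted P-value 0.00698), and the ferritin heavy chain Fth1 rose by Log2FC 1.44 (adjusted P-value 0.00954). LPS library 2 was the lowest LPS library for Slc11a2 and Hmox1. The exporter ferroportin (Slc40a1) fell from 15.5, 15.2 and 16.2 to 4.13, 9.51 and 4.8 FPKM (Log2FC -1.37, SE 0.40, adjusted P-value 0.0296). The call of Slc40a1 was lost without any control library or LPS library 1 or 3, with Log2FC from -1.39 to -1.15 and adjusted P-values from 0.051 to 0.103. Metallothioneins, which bind zinc, rose strongly, with Mt2 at 189, 1121 and 34.8 against 8747, 6485 and 11980 FPKM (Log2FC 5.49, SE 1.02, adjusted P-value 0.00676) and Mt1 at 309.7, 1496 and 78.0 against 10540, 8999 and 15310 (Log2FC 5.09, SE 0.88, adjusted P-value 0.00539). The zinc and iron importer Slc39a14 rose by Log2FC 1.57 (adjusted P-value 0.00401). Of 16 metallothionein and zinc transporter genes 7 rose, and 11 without LPS library 2. The iron count of lower members was 3 without LPS library 3. Slc11a2, Fth1, Slc40a1 and Slc39a14 were picked after their values were seen.

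Genes of bile acid synthesis and transport were called mostly lower. Of 23 tested members 11 fell and 1 rose (median Log2FC -1.25), and their summed level went from 2008, 2238 and 2348 FPKM to 992, 1149 and 1033. Cyp7a1 (chr4:6192759-6202780 in mm9), the rate-limiting enzyme of bile acid synthesis, was at 19.6, 30.3 and 30.2 FPKM in the controls and at 0.103, 0.927 and 0.0631 with LPS (Log2FC -5.08, SE 0.38, adjusted P-value 0.000246). Akr1d1, a reductase of the same pathway, was at 52.2, 95.3 and 106 against 2.63, 11.7 and 2.46 FPKM (Log2FC -4.07, SE 0.59, adjusted P-value 0.00319). Cyp8b1, the sterol hydroxylase that makes cholic acid, was at 235, 123 and 132 against 16.1, 55.2 and 14.1 (Log2FC -2.72, SE 0.53, adjusted P-value 0.0078). LPS library 2 held the highest LPS level for all 3 genes and still lay below every control. Several transporters fell too. The bile salt export pump Abcb11 was at 93.0, 119.8 and 136 against 6.89, 28.6 and 7.58 FPKM (Log2FC -3.27, SE 0.52, adjusted P-value 0.00415), and the uptake carrier Slco1a1 at 47.1, 50.3 and 62.8 against 12.4, 11.7 and 11.6 (Log2FC -2.11, SE 0.19, adjusted P-value 0.000496). The canalicular pump Abcc2 fell with Log2FC -1.25 (adjusted P-value 0.00506). The member that rose was Cyp7b1, of the alternative pathway, at 87.9, 43.8 and 30.1 against 196, 98.8 and 192 FPKM (Log2FC 1.66, SE 0.50, adjusted P-value 0.0336). The call of Cyp7b1 was lost without control library 2 or 3 or LPS library 1 or 3, with Log2FC from 1.31 to 1.58 and adjusted P-values from 0.0954 to 0.115. Cyp8b1, Slco1a1 and Abcc2 were picked for their roles after their values were seen.

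**Figure D3:**
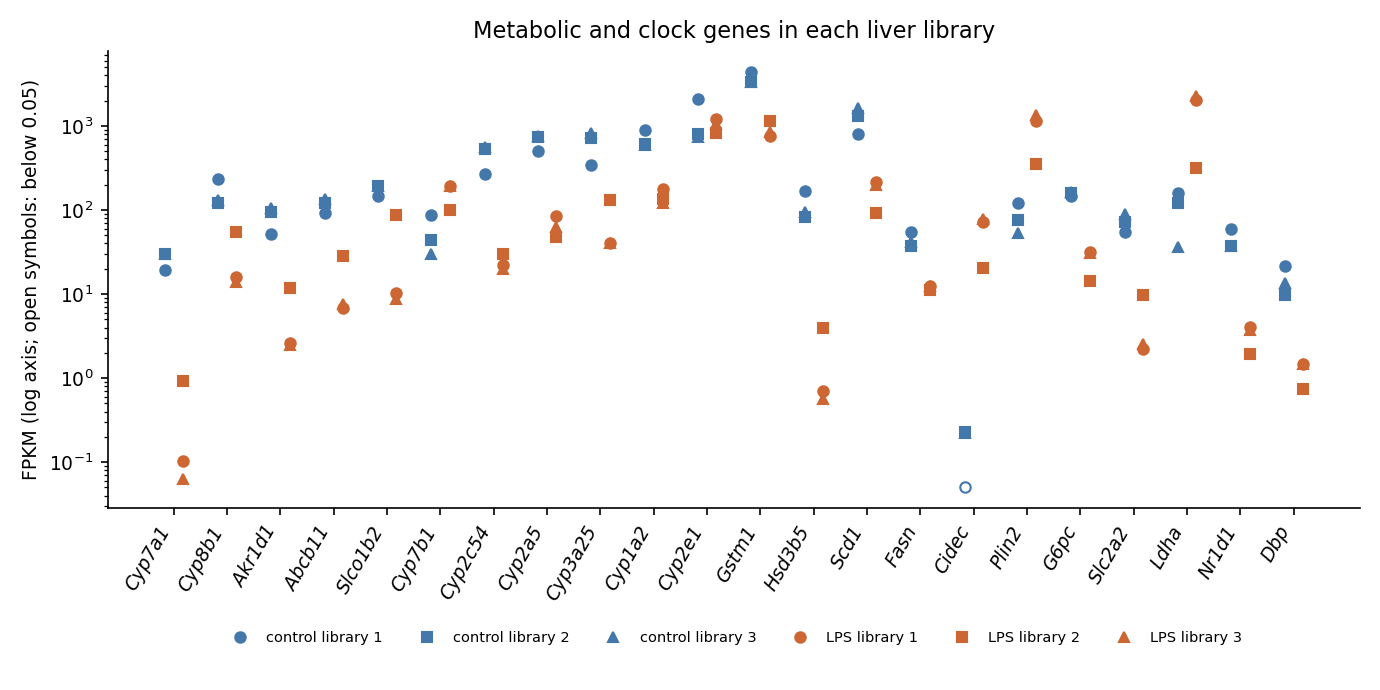
FPKM of 22 genes of bile acid, drug, lipid, glucose and clock biology in each liver library on a log axis, controls in blue and LPS in orange, with an open symbol for a value below 0.05. Cyp7a1, Akr1d1, Hsd3b5 and Slc2a2 lie far lower with LPS, with LPS library 2 between the other LPS libraries and the controls, while Cidec, Plin2 and Ldha lie higher.

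Cytochrome P450 genes of families 1 to 4, which oxidize drugs, steroids and fatty acids, fell in 20 of 47 tested members and rose in 3 (median Log2FC -1.02). The count that rose was 0 without LPS library 3. The sum over the list went from 14600, 10070 and 10350 to 5640, 5476 and 5205 FPKM. Cyp2c54 was at 268, 531 and 556 FPKM in the controls and 22.2, 30.4 and 19.6 with LPS (Log2FC -4.15, SE 0.30, adjusted P-value 0.000246), Cyp2a5 at 509, 743 and 760.2 against 85.5, 48.0 and 62.8 (Log2FC -3.36, SE 0.26, adjusted P-value 0.000291), and Cyp3a25 at 348, 720.5 and 820.4 against 40.7, 131 and 40.9 (Log2FC -3.28, SE 0.50, adjusted P-value 0.00368). Cyp1a2, which metabolizes caffeine, and Cyp3a11, the main drug-metabolizing Cyp3a form, were picked for their roles and fell with Log2FC -2.27 and -1.45 (adjusted P-values 0.000948 and 0.0128). The groups stood apart for all 5 genes. Cyp2e1, which oxidizes ethanol, did not pass the test, at 2079, 802 and 745 against 1216, 817 and 1061 FPKM (Log2FC -0.08, adjusted P-value 0.905), and control library 1 was the highest. Reads of the Cyp2c and Cyp3a clusters may be split between near-identical members with error. Phase II conjugation genes fell in 17 of 45 and rose in 3 (median Log2FC -0.51). Gstm1, a glutathione transferase, was at 4441, 3328 and 3375 against 755, 1133 and 839.9 FPKM (Log2FC -2.04, SE 0.23, adjusted P-value 0.00108), and Gsta2 at 214, 71.8 and 77.7 against 13.3, 8.43 and 11.6 (Log2FC -3.22, SE 0.40, adjusted P-value 0.0017). The nicotinamide methyltransferase Nnmt rose from 60.6, 97.6 and 75.6 to 644, 533 and 834 FPKM (Log2FC 3.10, SE 0.27, adjusted P-value 0.000456).

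Targets of the antioxidant factor Nrf2 gave 3 higher and 7 lower of 26 tested members (median Log2FC -0.48), and those that fell included the glutathione transferases Gstm1 and Gsta2 also counted above. Gclc, the catalytic subunit of glutathione synthesis, picked for its role, was at 128, 103 and 112 FPKM in the controls and 29.3, 57.4 and 23 with LPS (Log2FC -1.74, SE 0.31, adjusted P-value 0.00582), while Hmox1 rose. The count of higher members was 1 without control library 2 or LPS library 1 or 3, and that of lower members was 3 without LPS library 3 and 4 without LPS library 1. On the same-sum scale 11 members were lower.

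Cidec, Plin2 and Plin5, genes of lipid droplets, rose, and Scd1, Thrsp and Fasn, genes of fatty acid synthesis, fell. Of 29 tested members of the list that holds both kinds, 6 rose and 9 fell (median Log2FC -0.55). Cidec, which fuses lipid droplets, was at 0, 0.226 and 0.221 FPKM in the controls and 71.7, 20.2 and 77.9 with LPS (Log2FC 6.26, SE 0.98, adjusted P-value 0.00411), and the droplet coat gene Plin2 at 122, 77.1 and 52.7 against 1136, 355 and 1338 (Log2FC 3.36, SE 0.59, adjusted P-value 0.00578). Plin5, a coat protein of droplets beside mitochondria, rose by Log2FC 2.12 (adjusted P-value 0.00391), and Angptl4, an inhibitor of lipoprotein lipase picked for its role, by 1.77 (adjusted P-value 0.00342). Of the genes that fell, Scd1, the stearoyl-CoA desaturase, was at 802, 1332 and 1637 against 213, 93.2 and 196 FPKM (Log2FC -2.93, SE 0.43, adjusted P-value 0.00316), Thrsp, a regulator of lipogenesis, at 374, 275 and 316 against 37.2, 12.2 and 45.2 (Log2FC -3.52, SE 0.43, adjusted P-value 0.00158), and fatty acid synthase (Fasn), picked for its role, at 55.2, 37.5 and 42.0 against 12.5, 11.2 and 12.3 (Log2FC -1.84, SE 0.18, adjusted P-value 0.000637). All 3 LPS libraries lay below all controls for these genes, and LPS library 2 was the lowest for each of them.

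Fatty acid oxidation genes rose in 9 and fell in 5 of 37 (median Log2FC 0.38, or 0.02 on the same-sum scale). Cpt1a, which admits fatty acids to mitochondria and was picked for its role, rose by Log2FC 1.27 (adjusted P-value 0.00625), and the fasting hormone gene Fgf21 was at 0.638, 0.221 and 0 FPKM against 4.22, 3.39 and 5.58 (Log2FC 2.70, SE 0.40, adjusted P-value 0.00324). The fatty acid carrier Fabp1 fell from 10530, 6111 and 6652 to 938, 3521 and 1124 FPKM (Log2FC -2.28, SE 0.50, adjusted P-value 0.0115), and Acsl1, which activates fatty acids, from 228, 153 and 169 to 51.8, 68.4 and 47.2 (Log2FC -1.70, SE 0.23, adjusted P-value 0.00226). Leaving out LPS library 3 ended the call of Fabp1, at Log2FC -2.05 and adjusted P-value 0.0519. The count of members that rose was 4 without LPS library 3, and of those that fell 2 without LPS library 3 and 3 without control library 1 or LPS library 1. Cholesterol synthesis genes fell in 5 of 25 (median Log2FC -0.55), or in 11 on the same-sum scale, and rose in 1, Insig2, at 23, 18.3 and 2.67 against 115, 30.4 and 129.9 FPKM (Log2FC 2.79, SE 0.82, adjusted P-value 0.0308). The call of Insig2 was lost without control library 2 or 3 or LPS library 1 or 3, with Log2FC from 1.88 to 3.17 and adjusted P-values from 0.051 to 0.112. Its paralog Insig1, which holds the SREBP factors in the ER, was at 192, 137 and 143 against 27.9, 47.6 and 25.5 FPKM (Log2FC -2.25, SE 0.29, adjusted P-value 0.00193), and Nsdhl, an enzyme of the pathway, at 76.5, 72.5 and 68.2 against 10.9, 19.0 and 10.6 (Log2FC -2.43, SE 0.27, adjusted P-value 0.001). Lipoprotein genes gave 4 higher and 5 lower of 25, with a median Log2FC of 0.05 that turned to -0.32 on the same-sum scale. Apoa4 rose from 72.7, 42.7 and 17.6 to 807, 550.4 and 884 FPKM (Log2FC 4.25, SE 0.65, adjusted P-value 0.00376), while Pltp, the phospholipid transfer protein, fell from 76.6, 118 and 130.3 to 8.88, 14.6 and 9.25 (Log2FC -3.25, SE 0.27, adjusted P-value 0.000373). The lipoprotein count of higher members was 2 without control library 2 or 3 or LPS library 3, and that of lower members was 3 without control library 2 or 3 or LPS library 1 or 3 and 8 without LPS library 2.

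Genes of glycolysis and of glucose output each moved in both directions. Of 30 tested members 9 rose and 6 fell, with a median Log2FC of 0.28 that turned to -0.08 on the same-sum scale. Lactate dehydrogenase Ldha, of glycolysis, was at 159, 122 and 36.5 FPKM in the controls and 2020, 317 and 2302 with LPS (Log2FC 3.67, SE 0.79, adjusted P-value 0.0112), and the pyruvate kinase gene of non-hepatic tissues, Pkm2, at 6.21, 17.4 and 8.90 against 83.1, 45.5 and 92.4 (Log2FC 2.77, SE 0.39, adjusted P-value 0.00283). Slc2a2 (GLUT2), the glucose carrier of hepatocytes, fell from 54.9, 71.2 and 88.7 to 2.24, 9.79 and 2.58 FPKM (Log2FC -4.0, SE 0.52, adjusted P-value 0.00203). G6pc, which releases glucose from glucose 6-phosphate, was at 147, 161 and 164 against 32.0, 14.5 and 30.9 (Log2FC -2.67, SE 0.45, adjusted P-value 0.00521), and the glycogen synthase Gys2, picked for its role, fell with Log2FC -1.16 (adjusted P-value 0.00651). Against these, the gluconeogenic genes Fbp1 and Pcx rose, with Fbp1 at 176, 133 and 66.2 against 1157, 265 and 1423 FPKM (Log2FC 2.71, SE 0.62, adjusted P-value 0.0135) and Pcx at Log2FC 1.14 (adjusted P-value 0.0148), and the liver pyruvate kinase Pklr, picked after its values were seen, fell from 79.7, 36.7 and 37.4 to 19.2, 15.3 and 19.8 FPKM (Log2FC -1.39, SE 0.30, adjusted P-value 0.0113). The call of Fbp1 was lost without LPS library 1 or 3, with Log2FC from 2.25 to 2.40 and adjusted P-values from 0.0537 to 0.0559. The call of Pcx was lost without control library 3 or LPS library 1 or 3, with Log2FC from 0.99 to 1.07 and adjusted P-values from 0.0537 to 0.0648. LPS library 2 lay nearest to the controls for Ldha and Slc2a2 and was the lowest library for G6pc. The count of higher members was 3 without LPS library 1 or 3.

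Genes of the urea cycle and of amino acid metabolism fell in 16 of 51 tested members and rose in 7 (median Log2FC -0.51). Within the urea cycle, Otc fell from 208, 204 and 256 to 58.0, 86.3 and 57.3 FPKM (Log2FC -1.74, SE 0.24, adjusted P-value 0.00257) and arginase Arg1 rose from 973, 730.2 and 646 to 2414, 1468 and 2583 (Log2FC 1.44, SE 0.28, adjusted P-value 0.00757). Cps1, the entry enzyme, was at 300.5, 236 and 234 against 71.8, 82.2 and 67.5 FPKM (Log2FC -1.79, SE 0.54, adjusted P-value 0.0331). The call of Cps1 was lost without any control library or LPS library 1 or 3, with Log2FC from -1.85 to -1.67 and adjusted P-values from 0.0684 to 0.103. The control and LPS values of Cps1 did not overlap, and its SE also holds the spread among the libraries of mice given MIC-1. Prodh, which oxidizes proline, was at 126, 141 and 156 against 15.8, 41.2 and 16.8 (Log2FC -2.63, SE 0.48, adjusted P-value 0.00625). Sdsl, a serine dehydratase-like gene, rose from 16.1, 28.9 and 16.2 to 301, 202 and 388 FPKM (Log2FC 3.83, SE 0.33, adjusted P-value 0.000424), and the asparagine synthetase Asns from 2.29, 2.14 and 2.28 to 13.8, 22.0 and 14.7 (Log2FC 2.63, SE 0.24, adjusted P-value 0.000501). The count of lower members was 5 without LPS library 3 and 8 without LPS library 1, and that of higher members 4 without LPS library 3. Otc was picked for its role.

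In the growth hormone and IGF list 2 of 19 tested members rose and 4 fell (median Log2FC -0.41). The prolactin receptor Prlr was at 17.1, 9.92 and 11.3 FPKM in the controls and 1.1, 3.83 and 0.635 with LPS (Log2FC -2.71, SE 0.45, adjusted P-value 0.00506). Igf1 itself, the main endocrine product, was at 238, 152 and 163 against 100, 130.2 and 89.6 FPKM and did not reach an absolute Log2FC of 1 (Log2FC -0.78, adjusted P-value 0.0336). Male-biased genes, which pulsatile growth hormone keeps high in male liver, fell in 8 of 28 and rose in 2 (median Log2FC -0.46). Hsd3b5, a steroid dehydrogenase, was at 166, 81.5 and 95.0 against 0.702, 4.0 and 0.57 FPKM (Log2FC -5.93, SE 0.59, adjusted P-value 0.000637). Mup5 and Mup6, of the major urinary proteins, fell with Log2FC -3.58 and -4.45 (adjusted P-values 0.00176 and 0.000875), while Mup19, the most abundant member of the list, was at 8800, 12110 and 11240 against 10830, 10190 and 12060 FPKM and did not pass the test (adjusted P-value 0.896). The male-biased count that rose was 0 without LPS library 3 and 1 without control library 2 or 3 or LPS library 1. Mup genes are near-identical copies, so their shares of reads are uncertain.

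Liver transcription factors and nuclear receptors fell in 9 of 31 tested members and rose in 3 (median Log2FC -0.13). Onecut1 (HNF6) was at 54.0, 25.5 and 17.5 FPKM in the controls and 4.19, 4.67 and 1.94 with LPS (Log2FC -2.92, SE 0.44, adjusted P-value 0.00349), and the coactivator Ppargc1b at 13.3, 7.88 and 8.98 against 1.09, 2.20 and 0.544 (Log2FC -2.65, SE 0.37, adjusted P-value 0.00279). Nr1d1 (REV-ERB alpha), a repressor of the clock, fell from 59.1, 37.4 and 37.6 to 4.01, 1.91 and 3.77 FPKM (Log2FC -3.62, SE 0.28, adjusted P-value 0.000291). Circadian clock genes fell in 5 of 17 and rose in 2, with a median Log2FC of 0.03 that turned to -0.32 on the same-sum scale. The output gene Dbp fell with Nr1d1, from 21.3, 9.79 and 13.5 to 1.46, 0.74 and 1.46 FPKM (Log2FC -3.12, SE 0.36, adjusted P-value 0.00124), and Per1 rose from 3.14, 1.83 and 1.79 to 10.3, 7.18 and 10.8 (Log2FC 1.87, SE 0.26, adjusted P-value 0.00288). The count of clock genes that rose was 1 without LPS library 1 or 3. The labels give no clock time of the collection. Targets of the glucocorticoid receptor rose in 9 of 18 (median Log2FC 1.67), and Lcn2, Mt1, Mt2 and Per1 are among them. The cell-cycle inhibitor Cdkn1a was at 6.85, 11.8 and 4.10 against 177, 85.5 and 160.2 FPKM (Log2FC 4.18, SE 0.38, adjusted P-value 0.000501), and Fkbp5, a chaperone of the receptor picked for its role, at 3.04, 6.26 and 2.44 against 39.3, 17.5 and 41.6 (Log2FC 2.91, SE 0.46, adjusted P-value 0.00414). Klf9, another target, fell from 354, 154 and 138 to 54.7, 69.1 and 22.9 FPKM (Log2FC -2.13, SE 0.47, adjusted P-value 0.0122).

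Genes of protein folding in the endoplasmic reticulum rose in 13 of 30 tested members (median Log2FC 1.12). Creld2 was at 43.3, 21.9 and 15.9 FPKM in the controls and 229.8, 83.0 and 246 with LPS (Log2FC 2.73, SE 0.47, adjusted P-value 0.00544), and Ddit3 (CHOP), a factor of unresolved stress picked for its role, at 14.9, 21.4 and 18.4 against 55.3, 114 and 68.8 (Log2FC 2.03, SE 0.39, adjusted P-value 0.00752). The count was 5 without control library 2 or 3 or LPS library 1 or 3. Proteasome genes rose in 11 of 31 and ribosomal protein genes in 25 of 63 (median Log2FC 0.83 and 0.89). The stalk protein gene Rplp0 was at 288, 194 and 157 against 602, 640.4 and 763 FPKM (Log2FC 1.69, SE 0.24, adjusted P-value 0.0031), and the proteasome subunit Psmd8 at 67.2, 40.6 and 39.1 against 186, 112 and 197 (Log2FC 1.75, SE 0.29, adjusted P-value 0.0049). On the same-sum scale 4 proteasome genes were higher and 3 lower, and 13 ribosomal protein genes were higher. The proteasome count was 3 without LPS library 3, 5 without control library 2 or 3 and 6 without LPS library 1, and the ribosomal count 11 without LPS library 3 and 12 without control library 2 or 3. Oxidative phosphorylation genes of the nuclear genome gave 8 higher and 2 lower of 77, shares below those of all genes, with counts of 1 without LPS library 3, 2 without control library 2 or 3 or LPS library 1 and 20 without control library 1 for the higher and 0 without LPS library 1, 1 without control library 2 or LPS library 3 and 10 without LPS library 2 for the lower members, and with a median Log2FC of 0.01 that turned to -0.35 on the same-sum scale. Of 22 genes of the TCA cycle limma called 0, and at an unadjusted P-value below 0.05 1 was higher and 0 lower with an absolute Log2FC above 1. With no minimum Log2FC, 2 were higher and 6 lower at a limma adjusted P-value below 0.05, against 1947 and 1573 of all 10147 tested genes. The count of higher TCA members was 3 without LPS library 2 and 4 without control library 1, and that of lower ones 1 without control library 1 and 3 without LPS library 2.

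Genes of cell death rose in 13 of 29 tested members and fell in 1 (median Log2FC 1.26). Gsdmd, whose product forms the pores of pyroptosis, was at 19.4, 24.3 and 25.0 FPKM in the controls and 54.5, 64.2 and 54.9 with LPS (Log2FC 1.32, SE 0.16, adjusted P-value 0.00172), and Bax, of the mitochondrial path of apoptosis, at 45.2, 42.6 and 43.3 against 103, 136 and 115 (Log2FC 1.41, SE 0.24, adjusted P-value 0.00507). The death receptor Fas rose by Log2FC 1.26 (adjusted P-value 0.00536), and Gadd45g, a stress gene, by 2.53 (adjusted P-value 0.000517). The proapoptotic Bak1 was listed at 0 in every control and at 17.8, 3.30 and 14.8 FPKM with LPS. Gsdmd, Bax and Fas were picked for their roles. Of 21 genes of mitosis 3 passed the level filter and these fell, a count that was 0 without control library 2 or LPS library 3 and 1 without control library 3 or LPS library 1. The cell death member that fell was the TRAIL receptor gene Tnfrsf10b. The call of Tnfrsf10b was lost without control library 2 or 3 or LPS library 1 or 3, with Log2FC from -1.97 to -1.75 and adjusted P-values from 0.0854 to 0.105.

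Markers of cell types were read as a check of the tissue and of its makeup. The tissue showed its label, with Alb at 16300 FPKM or more in every library and the hepatocyte list at a sum of 89720, 45230 and 46720 FPKM in the controls and 42940, 51300 and 41060 with LPS, which overlapped. Neutrophil markers rose in 13 of 14 tested members and fell in 1 (median Log2FC 2.92). Their sum went from 41.0, 58.7 and 43.4 to 439, 387 and 506 FPKM, 9.31 times as high, or 7.13 times on the same-sum scale. S100a8, a calprotectin subunit, was at 7.49, 7.98 and 2.13 FPKM in the controls and 228, 269 and 286 with LPS (Log2FC 5.53, SE 0.49, adjusted P-value 0.000456), and its partner S100a9 at 0, 0 and 0.449 against 47.1, 37.6 and 60.1 (Log2FC 6.27, SE 0.40, adjusted P-value 0.000204). The granule gene Ngp was at 1.18, 0.514 and 0 against 54.5, 6.62 and 49.7 (Log2FC 4.83, SE 0.79, adjusted P-value 0.0048). Retnlg and Mmp8, neutrophil genes picked after their values were seen, rose by Log2FC 4.75 and 3.42 (adjusted P-values 0.000616 and 0.000709). Against these, the receptor gene Cxcr2 fell from 26.5, 42.6 and 36.2 to 7.19, 10.1 and 3.89 FPKM (Log2FC -2.30, SE 0.38, adjusted P-value 0.0049). The granule genes Mpo and Ltf, and Csf3r and Trem1, were below the level filter. S100a9 and Ngp passed it only through libraries of mice given LPS, so the share of neutrophil markers that rose depends in part on the filter.

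**Figure D4:**
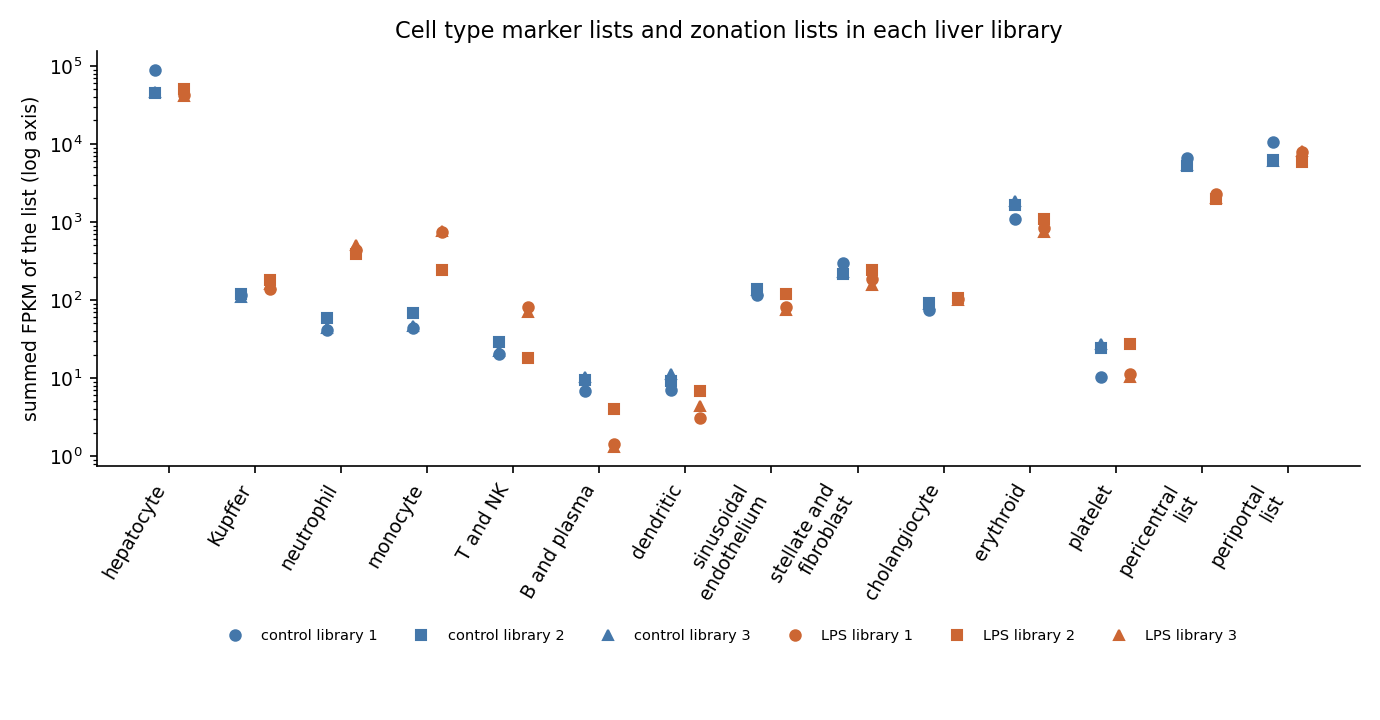
Summed FPKM of each cell type marker list and of both zonation lists in each liver library on a log axis, controls in blue and LPS in orange. Neutrophil and monocyte sums lie higher with LPS, B and plasma cell, dendritic, erythroid and pericentral sums lower, and those of hepatocytes, sinusoidal endothelium, stellate cells, platelets and periportal genes overlap.

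Monocyte markers rose in 6 of 10 tested members (median Log2FC 2.82), and their sum went from 43.8, 67.5 and 46.3 to 751, 241 and 761 FPKM, of which Cd14 made up most in LPS libraries 1 and 3. Plac8 was at 6.10, 6.44 and 2.52 FPKM in the controls and 59.2, 72.8 and 73.9 with LPS (Log2FC 3.73, SE 0.33, adjusted P-value 0.000456), and Chi3l3, a chitinase-like gene, at 0.358, 0.633 and 0 against 19.3, 5.63 and 23.8 (Log2FC 4.19, SE 0.51, adjusted P-value 0.00159). The defining receptor Ccr2 was below the level filter, and Lyz2 was at 13.4, 25.4 and 19.9 against 41.4, 28.0 and 41.8 (Log2FC 0.93, adjusted P-value 0.128). Kupffer cell markers, of the resident macrophages, split, with 3 of 13 higher and 4 lower and a median Log2FC of 0.20 that turned to -0.14 on the same-sum scale. The scavenger receptor Marco rose from 2.51, 6.79 and 2.18 to 23.1, 40.4 and 31.3 FPKM (Log2FC 3.01, SE 0.43, adjusted P-value 0.00305), and C1qb from 22.5, 11.8 and 10.1 to 35.3, 38.3 and 41.1 (Log2FC 1.42, SE 0.29, adjusted P-value 0.00873). Clec4f, the lectin of resident Kupffer cells, fell from 13, 29.8 and 30.1 to 6.32, 2.85 and 6.31 FPKM (Log2FC -2.11, SE 0.38, adjusted P-value 0.00619), and Vsig4, a complement receptor, from 6.70, 3.02 and 4.70 to 1.32, 1.22 and 1.5 (Log2FC -1.47, SE 0.33, adjusted P-value 0.0125). Timd4 and Csf1r, picked for their roles, did not pass the test (adjusted P-values 0.328 and 0.615). Without LPS library 3, 2 Kupffer markers were lower.

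Lymphocyte and dendritic markers were low. Of 19 T and NK cell markers 6 passed the level filter, of 11 B and plasma cell markers 2, and of 10 dendritic markers 2. Cd3d, a chain of the T cell receptor complex, fell from 9.16, 13.1 and 10.4 to 5.17, 2.43 and 1.57 FPKM (Log2FC -1.79, SE 0.36, adjusted P-value 0.00924), Cd79a, of the B cell receptor, from 3.57, 2.68 and 2.42 to 0.358, 1.02 and 0.227 (Log2FC -1.77, SE 0.36, adjusted P-value 0.00873), while the granzyme Gzma rose from 0.135, 0.233 and 0 to 3.00, 1.73 and 3.33 (Log2FC 2.33, SE 0.30, adjusted P-value 0.00193). Trat1, an adaptor of the T cell receptor that made up most of the T and NK sum in LPS libraries 1 and 3, was at 1.56, 1.32 and 0 FPKM against 65.0, 2.79 and 58.4 (Log2FC 4.24, SE 1.07, adjusted P-value 0.0187). The call of Trat1 was lost without control library 3 or LPS library 1 or 3, with Log2FC from 3.50 to 3.59 and adjusted P-values from 0.0665 to 0.0755. The T and NK sums, 20.6, 29.3 and 22.1 FPKM in the controls and 80.4, 18.1 and 69.5 with LPS, overlapped. This overlap rests on Trat1, since with its values taken out the sum of every LPS library lies below that of every control. The sums of B and plasma cell markers went from 6.72, 9.38 and 10.3 to 1.44, 4.05 and 1.29 FPKM, with Ms4a1 below the level filter. Sinusoidal endothelium markers gave 2 higher and 5 lower of 15 (median Log2FC -0.62), with Ehd3 at 11.6, 9.63 and 10.8 against 0.916, 3.54 and 0.906 FPKM (Log2FC -2.48, SE 0.48, adjusted P-value 0.00752) and Lyve1, a hyaluronan receptor, at 10.2, 8.23 and 7.29 against 32.4, 24.1 and 20.6 (Log2FC 1.52, SE 0.31, adjusted P-value 0.00898). Stab2, picked for its role, did not pass (adjusted P-value 0.141). The count of lower members was 1 without LPS library 1 or 3, 2 without control library 2 and 3 without control library 3. Stellate and fibroblast markers gave 1 lower of 13, which was 0 without control library 2 or 3 or LPS library 1 or 3 and 4 without LPS library 2. The sums of erythroid markers were 1095, 1671 and 1878 FPKM in the controls and 827, 1093 and 749.9 with LPS, and Car1, of red cells, fell from 9.92, 14.3 and 16.0 to 0.587, 1.09 and 0.552 (Log2FC -3.48, SE 0.31, adjusted P-value 0.000456). Markers of pancreas, its digestive enzymes and hormones, were at 0 in all 6 libraries for 8 of 13 genes. The part of these shifts in cell markers in the other results was not tested.

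Pericentral genes of the liver lobule were called lower more often than genes at large. Of 20 tested pericentral genes, active around the central vein where oxygen is low, 13 fell (median Log2FC -1.66), against 11.2% of all genes. Their sum went from 6690, 5185 and 5417 to 2272, 1967 and 2014 FPKM, and several of the members that fell are P450 or glutathione transferase genes counted above. Rgn, a calcium-binding lactonase, was at 510.2, 649.8 and 802 FPKM in the controls and 106, 163 and 106 with LPS (Log2FC -2.39, SE 0.26, adjusted P-value 0.00105), and Cyp2c37 at 232, 340.1 and 349 against 34.2, 38.0 and 30.2 (Log2FC -3.13, SE 0.20, adjusted P-value 0.000204). The glutamine synthetase Glul, which marks the innermost layer, fell from 416, 226 and 233 to 90.3, 77.5 and 78.2 FPKM (Log2FC -1.77, SE 0.44, adjusted P-value 0.0171). The call of Glul was lost without LPS library 3, at Log2FC -1.74 and adjusted P-value 0.0628. Genes around the portal vein gave 3 higher and 6 lower of 22 (median Log2FC -0.45), and their sums overlapped. Hsd17b6, a steroid dehydrogenase, fell from 153, 128 and 126 to 12.0, 20.4 and 12.8 FPKM (Log2FC -3.16, SE 0.30, adjusted P-value 0.000583), and Pigr, the receptor that carries IgA into bile, from 654, 388 and 392 to 116, 237 and 78.1 (Log2FC -1.84, SE 0.40, adjusted P-value 0.0113). Rgn, Glul and Pigr were picked for their roles. The difference between both lists was not tested.

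**Figure D5:**
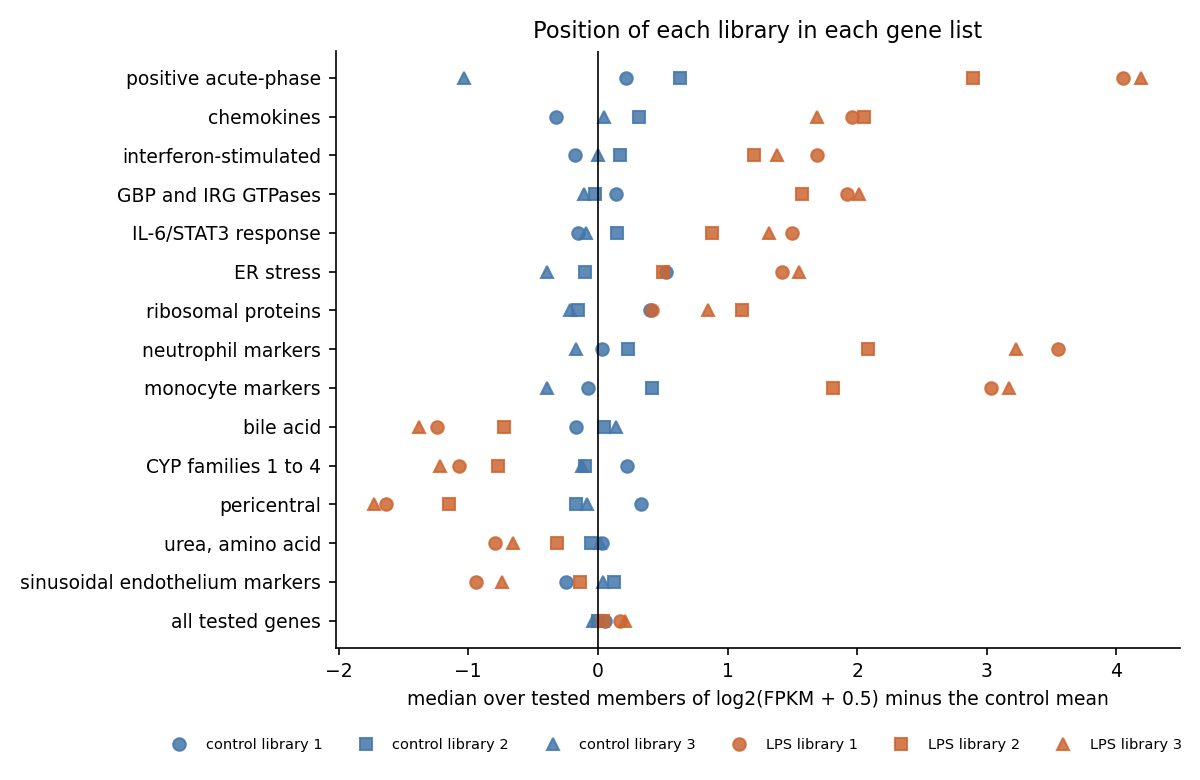
Median over the tested members of each list of log2(FPKM + 0.5) minus the control mean of the gene, for each liver library, controls in blue and LPS in orange. LPS library 2 (square) lies nearer to the control mean than LPS libraries 1 and 3 in every row except chemokines and ribosomal proteins, where it lies furthest from it.

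The 3 LPS libraries held different levels in several lists. For positive acute-phase genes the median over the list, relative to the control mean, was 4.05, 2.89 and 4.19 on the log2 scale in LPS libraries 1 to 3, and 0.22, 0.64 and -1.03 in the controls. For bile acid genes it was -1.24, -0.72 and -1.38, and for pericentral genes -1.64, -1.15 and -1.73. For chemokines, by contrast, LPS library 2 was at 2.05, with the others at 1.96 and 1.69. Ribosomal protein genes were highest in LPS library 2, at 1.11 against 0.41 and 0.85.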

How the data were processed

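Liver RNA was sequenced in 9 libraries, 3 control, 3 LPS and 3 LPS with MIC-1. The authors quantified reads with kallisto 0.45.0 on a RefSeq mm9 index and scaled libraries by DESeq2 1.20.0 size factors, per the submitters' processing notes and the methods. The deposited table holds FPKM per gene, with reads shared by near-identical copies divided by an estimate. The authors' own comparison tables, which hold base means, fold changes, standard errors and P-values, were not used, nor was the macrophage table.

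FPKM is not a count, so log2(FPKM + 0.5) was fitted with limma 3.58.1 (R 4.3.3, trended variance), all 3 liver groups in 1 fit, with Benjamini-Hochberg adjustment over the 10147 genes with a mean FPKM above 1. A call needed an absolute Log2FC above 1 beside an adjusted P-value under 0.05. Sums were made with pandas 2.3.3 and numpy 2.4.6 under Python 3.11.15, and plots with matplotlib 3.10.9. The depth is not stated, and of the low values 71.1% to 78.7% came out whole within 0.15 of a read, so the reads were estimated and no count test was run.

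On simulated data with 200 of 10147 genes changed, 73% were called at a change of 2 on the log2 scale and 82% at a change of 4, with 5 of 9947 unchanged genes called. The simulated noise was drawn independently for each gene and library, while in the data whole libraries deviated across many genes and 24.6% of genes were called. These rates therefore describe the simulated setting only. Libraries 1 and 3 of the LPS group had a median squared difference of 5.35 times the sampling variance, against 74.7 and 82.9 for the other LPS pairs. Each of the other liver groups held a close pair too. Control libraries 2 and 3 were at 5.96, against 52.9 and 42.4 for the other control pairs. Libraries 1 and 3 of mice given MIC-1 before LPS were at 2.12, against 33.4 and 34.0. Whether any close pair came from repeat preparations of 1 liver was not tested, and the paper describes livers from 3 mice in each group. All libraries were counted as separate samples by their labels, and the mean of LPS libraries 1 and 3 as 1 sample was an alternative.

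Named genes were the 10 largest called changes without overlap in each direction and, per list, the 3 largest called changes in each direction and the member with the highest mean. Other members were picked for their roles after their values were seen. The members and lists were chosen with earlier results of these data known. Alternatives changed the pseudocount, the filter on low values, the scaling, the groups in the fit, the variance trend, the thresholds and the libraries. Promoter sequences came from RefSeq (GRCm38.p6) and gene coordinates from GENCODE vM1 (mm9). The labels matched every column of the table. Some genes are not reported here.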

Additional observations from a re-analysis of the deposited data

How the results depend on the processing

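No paired analysis was possible because the columns of the table carry no replicate number. Against 1356 genes higher and 1137 lower, scaling to the same FPKM sum gave 797 and 1851, an adjusted P-value below 0.01 gave 623 and 479, and a mean FPKM above 5 gave 711 lower. Leaving out 1 library gave 657 to 1929 higher and 570 to 1581 lower. With alternatives chosen after seeing the data, library weights gave 2532 and 1770, and the mean of LPS libraries 1 and 3 as 1 sample gave 732 and 652. The cause of these shifts was not tested. Of the values of named genes over all alternatives, 6342 kept their side of the threshold, 38 passed it newly, 521 no longer passed it and 27 changed sign, the last for 10 genes that were not called.

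The Log2FC changed sign at the same sum for Mup19 (-0.31), Spp1 (-0.26) and Csf1r (-0.14), and with median-of-ratios scaling for Mup19 (-0.04). With library weights the Log2FC was 0.12 for Alb, 0.45 for Cyp2e1, -0.052 for Mup19, 0.083 for Dcn, -0.077 for Spp1 and -0.28 for Csf1r. Without control library 2 and LPS library 2 it was -0.11 for Gstp1 and -0.065 for Pf4, and with the mean of LPS libraries 1 and 3 it was 0.092 for Kng1 and 0.089 for Rpl28. Leaving out 1 library at a time, the Log2FC ran from -0.474 to 0.098 for Alb, from -0.224 to 0.107 for Kng1, from -0.344 to 0.396 for Cyp2e1, from -0.085 to 0.145 for Mup19, from -0.545 to 0.158 for Rpl28, from -0.376 to 0.157 for Dcn, from -0.016 to 0.185 for Spp1 and from -0.107 to 0.378 for Csf1r. The controls were sequenced less deeply than the LPS libraries, so low genes were measured with more error in them.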
